A study of Mus musculus with 16 samples.

Results

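Voltage-gated calcium channels are built around an alpha1 subunit, the protein that forms the pore and senses the membrane voltage. The 8 genes described here, Cacna1a, Cacna1b, Cacna1c, Cacna1d, Cacna1e, Cacna1g, Cacna1h and Cacna1i, encode the alpha1 subunits known from brain, out of 54532 genes in the deposited table. They were found by gene symbol. Cacna1g was chosen by the study, on values from these same mice, among genes whose expression and splicing differed with NR in hTau.P301S mice, and the other 7 members serve as its comparison. The levels and fold changes of Cacna1g are therefore given as a description, with no test, also against WT, since that comparison uses the same hTau.P301S mice.

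In neurons these channels turn a voltage change into an entry of calcium. The L-type channels (Cacna1c, Cacna1d) couple activity to gene expression, and the P/Q-type (Cacna1a), N-type (Cacna1b) and R-type (Cacna1e) channels drive transmitter release and dendritic calcium signals. The T-type channels (Cacna1g, Cacna1h, Cacna1i) open near the resting potential and support rebound bursts and rhythmic firing, for which Cacna1g is best known in thalamic relay neurons. Accessory alpha2delta and beta subunits carry L-, P/Q-, N- and R-type pores to the membrane.

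The data are RNA-seq counts from the hippocampus of 16 mice. Wild-type (WT) mice and hTau.P301S mice, whose transgene expresses mutant human Tau from the neuronal Thy1 promoter, were each studied without and with NR, which gives 4 groups of 4 mice. NR, nicotinamide riboside, a precursor of NAD+, was supplied to WT + NR mice and hTau.P301S + NR mice at 6 mM in drinking water for 3 months, while the other groups received vehicle water. Per the labels the mice were 12 months old at the start and 15 months old at the end. The study's text gives another age and duration in places, and no test used either.

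The values are CPM, counts scaled to a common library size after adjustment by the trimmed mean of M values (TMM), and levels of different genes are compared as CPM per kilobase of the deposited gene length. Total counts ran from 16490261 to 21915362 per mouse, and the 8 genes together took 4611 to 24823 of them. Thy1 was at 804 to 1640 CPM in hTau.P301S mice against 462 to 634 CPM in WT mice, and at 667 to 845 CPM in hTau.P301S + NR against 424 to 580 CPM in WT + NR, so the groups did not overlap in either pair. The level of mouse Mapt was 425 ± 37.4 CPM in WT mice (SD, n = 4), against 365 ± 124 CPM in mice with the transgene alone.

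Several mice stood apart in ways that touch every result below. hTau.P301S replicate 1 had 14.4% of its counts in mitochondrial genes, against 4.48% to 7.07% in the other 15 mice, and 19467 genes detected against at least 22199. Its length slope, the change in log2 level relative to the mean of all mice for each doubling of gene length, was -0.80 against -0.19 to 0.19 in the others, and it had the lowest level of 7 of the 8 alpha1 genes. WT replicate 2, WT + NR replicate 3 and hTau.P301S + NR replicate 4 had summed hippocampal markers (8 genes, among them Prox1, Wfs1 and Neurod6) of 506, 442 and 402 CPM, against 711 to 1186 CPM in the other 13. The same 3 mice had thalamic marker sums (10 genes, among them Tcf7l2 and Prkcd) of 396, 465 and 545 CPM, against 117 to 408 CPM. Their striatal marker sums (8 genes, among them Ppp1r1b and Drd1) were 2409, 486 and 890 CPM, against 158 to 310 CPM in the other 13. Choroid plexus marker sums (6 genes, among them Ttr) ran from 19.6 CPM in hTau.P301S replicate 1 to 9816 CPM in WT + NR replicate 4. No gene of these lists was at 0 in all mice.

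The sequences below show how the T-type members differ from the rest of the family in the part that selects calcium. Each is 30 bases of coding sequence around the pore loop of the third repeat, read 5′ to 3′ from the GENCODE transcripts on GRCm38, with the codon of the acidic residue that lines the pore in capitals. It was found as the 1 place in the longest annotated coding sequence of each gene where glutamate or aspartate follows phenylalanine, lysine or glycine and precedes glycine and tryptophan.
Cacna1g: ctggcctccaagGATggctgggttgacatc
Cacna1h: ctgtcatccaagGATggctgggtaaacatc
Cacna1i: ttggcctccaagGATggctgggtgaacatc
Cacna1c: gtctccaccttcGAAgggtggccagagctg
Cacna1d: gtctcaacttttGAGggctggcccgcgttg
Cacna1a: gtgtccacaggaGAGggctggccacaggtc
Cacna1b: gtgtccacgggaGAGgggtggcccatggtg
Cacna1e: gtctctacagggGAAggatggcctcaggtt

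The capitals spell an aspartate codon, GAT, in the 3 T-type genes and a glutamate codon, GAA or GAG, in the other 5. The windows of Cacna1g (chr11:94426456-94426485, minus strand), Cacna1h (chr17:25383493-25383522, minus strand) and Cacna1i (chr15:80376795-80376824, plus strand) lie within exon 24. Those of the other 5 each cross an exon boundary. The Cacna1g gene spans chr11:94408391-94474198 on the minus strand, has 16 annotated transcripts and overlaps no other gene. Stretches of 31 bases shared with another member made up 0.861% of its transcript sequence and at most 0.797% of any other member's. Cacna1e and Cacna1i also overlap no other gene, whereas Cacna1a, Cacna1b, Cacna1c, Cacna1d and Cacna1h overlap 1, 1, 3, 7 and 1 annotated genes, and whether strand was used in counting is not given in the sources used here.

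All 8 genes were expressed in every mouse and passed the filter on low counts in every comparison. Per kilobase, the median level over 16 mice was highest for Cacna1e (12.5 CPM per kb) and Cacna1a (12.2), followed by Cacna1h (10.7) and Cacna1b (10.6), Cacna1i (8.07), Cacna1g (5.41), Cacna1c (4.75) and Cacna1d (3.36). Neighbours in this order were not always separable. Cacna1e was above Cacna1a in 8 of 16 mice, Cacna1h above Cacna1b in 7 and Cacna1g above Cacna1c in 9, whereas Cacna1i was above Cacna1g in 15 and Cacna1c above Cacna1d in 15. The remaining alpha1 genes, Cacna1f and Cacna1s, known from retina and skeletal muscle, reached at most 13 and 20 counts in a mouse.

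**Figure D1:**
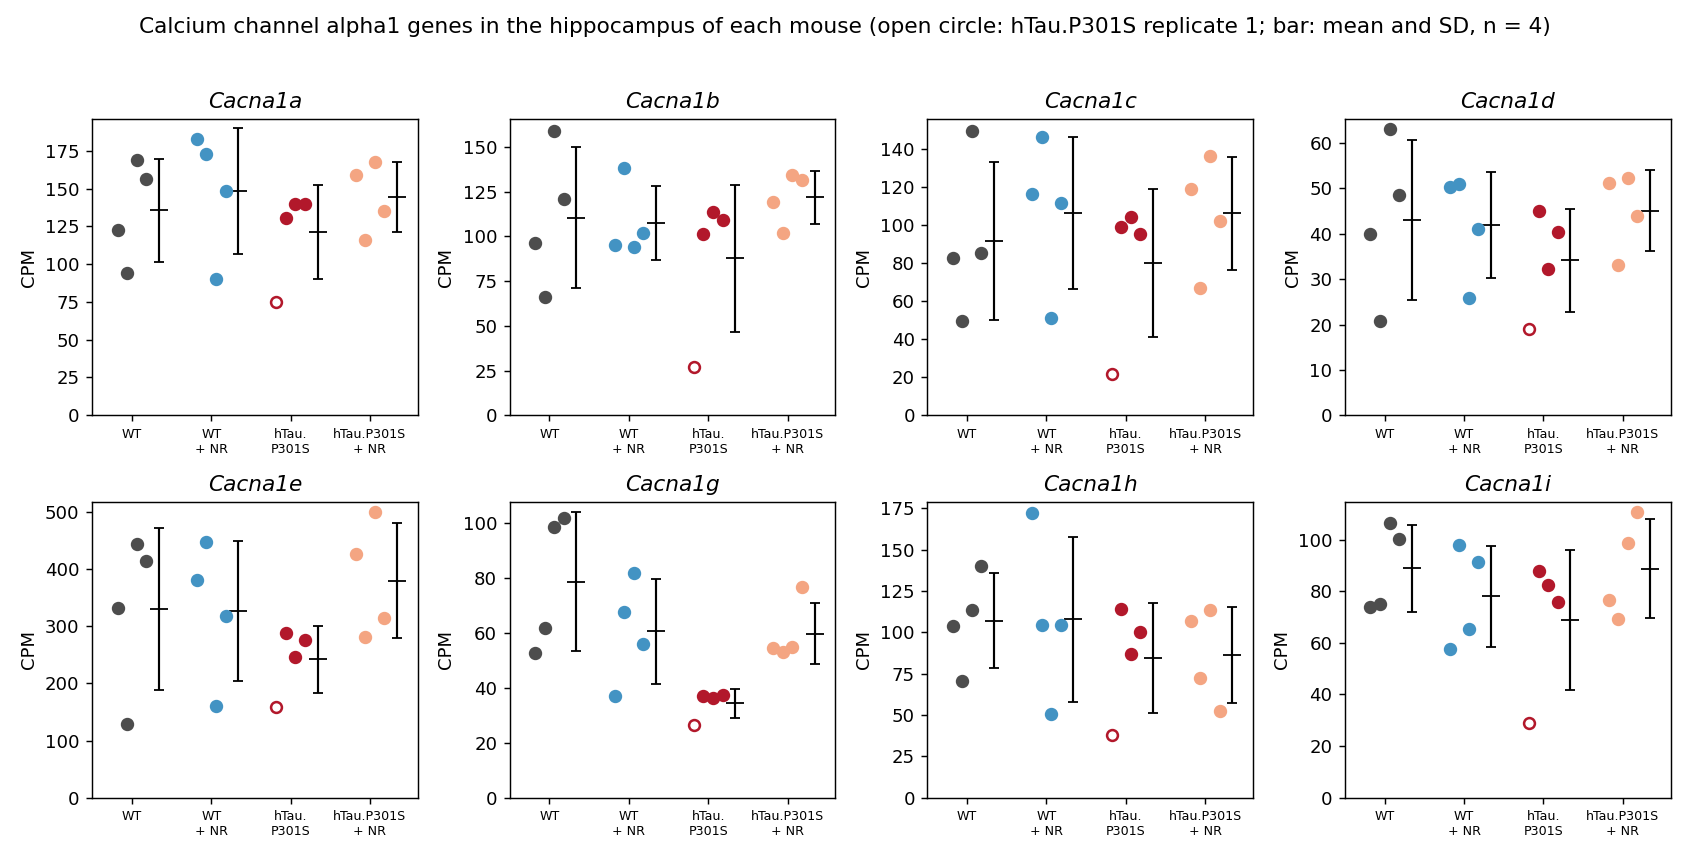
Levels (CPM, axes from 0) of the 8 alpha1 genes, 1 point per mouse, with the mean and SD of each group (n = 4) beside the points. For Cacna1g the 4 hTau.P301S mice (26.4 to 37.5 CPM) lay below all WT mice (52.7 to 102 CPM) and below all hTau.P301S + NR mice (53.1 to 76.6 CPM), while the groups of every other member overlapped.

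Cacna1g, the alpha1G T-type gene, was lowest in hTau.P301S mice. Its level in replicates 1 to 4 was 26.4, 37.2, 36.5 and 37.5 CPM in hTau.P301S and 52.7, 61.6, 98.5 and 102 CPM in WT. It was 54.6, 53.1, 55.0 and 76.6 CPM in hTau.P301S + NR and 36.9, 67.5, 82.0 and 55.9 CPM in WT + NR. The hTau.P301S mice were all below the WT mice and all below the hTau.P301S + NR mice, whereas WT + NR overlapped every other group. Replicates 2 to 4 of hTau.P301S lay close to each other, at 37.1 ± 0.515 CPM (SD, n = 3), and WT mice spread over 78.7 ± 25.2 CPM (SD, n = 4).

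Between hTau.P301S and WT the log2 fold change of Cacna1g was -1.19 (SE 0.26), and -1.10 (SE 0.25) without hTau.P301S replicate 1. Between hTau.P301S + NR and hTau.P301S it was 0.79 (SE 0.19), and 0.70 (SE 0.15) without that mouse. It was -0.37 (SE 0.29) for WT + NR against WT and -0.02 (SE 0.23) for hTau.P301S + NR against WT + NR. The difference between the NR effects in the 2 genotypes was 1.17 (SE 0.36) on the log2 scale. These comparisons share control mice, so they are not separate observations. In bulk tissue, fewer cells that express a gene and less RNA per cell cannot be told apart.

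The size of the Cacna1g differences depended on the length trend. With each mouse's trend over gene length removed, its log2 fold change was -0.95 (SE 0.21) between hTau.P301S and WT and 0.46 (SE 0.19) between hTau.P301S + NR and hTau.P301S. In each NR group the mouse with the lowest hippocampal and highest thalamic marker sum had the highest Cacna1g level, WT + NR replicate 3 (82.0 CPM) and hTau.P301S + NR replicate 4 (76.6 CPM). In the groups without NR the corresponding mouse had the second lowest level in WT (replicate 2, 61.6 CPM) and the lowest in hTau.P301S (replicate 1, 26.4 CPM). That hTau.P301S mouse is also the one set apart above by its mitochondrial share and length slope. Without WT + NR replicate 3, hTau.P301S + NR replicate 4 and WT replicate 2, left out after seeing the data, the log2 fold changes were -1.32 between hTau.P301S and WT and 0.65 between hTau.P301S + NR and hTau.P301S, and without hTau.P301S replicate 1 as well they were -1.20 and 0.55. The part of the marker differences in the levels of Cacna1g was not tested.

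Cacna1h and Cacna1i, the other T-type genes, are close to Cacna1g in deposited length (9763 and 9862 bases against 10137). Without NR, Cacna1h was at 107 ± 28.7 CPM in WT (SD, n = 4) and at 84.8 ± 33.2 CPM in hTau.P301S mice, and with NR at 108 ± 49.9 and 86.4 ± 28.9 CPM. Cacna1i was at 88.9 ± 16.9 and 68.8 ± 27.1 CPM without NR and at 78.0 ± 19.6 and 88.7 ± 19.2 CPM with it, in the same order. Both overlapped between groups in every pair, and their log2 fold changes between hTau.P301S and WT were -0.34 (SE 0.34) and -0.37 (SE 0.33).

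Set against Cacna1i in the same mouse, the log2 ratio of Cacna1g per kilobase was -0.25 ± 0.22 (SD, n = 4) in WT and -0.93 ± 0.52 in hTau.P301S. Replicates 2 to 4 of hTau.P301S were at -1.28, -1.22 and -1.06, below all WT mice (-0.53 to -0.01), and replicate 1 was at -0.17, within the WT range. The ratio was -0.60 ± 0.20 in hTau.P301S + NR (-0.88 to -0.42) and overlapped WT. Against Cacna1h the ratios were -0.51 ± 0.37 in WT and -1.26 ± 0.48 in hTau.P301S, with the same 3 mice at -1.67 to -1.31 and WT at -1.03 to -0.25. With NR, WT mice were at -0.75 to 0.29 against Cacna1i and at -2.28 to 0.64 against Cacna1h. The -2.28 was in WT + NR replicate 1, below every hTau.P301S mouse. Against Cacna1b (N-type, 9942 bases) the ratio was -0.51 ± 0.36 for WT mice. It was -1.19 ± 0.76 for the transgene alone and -1.06 ± 0.22 with NR added. Thus Cacna1g of hTau.P301S replicates 2 to 4 was also lower than in WT relative to the other T-type genes. That of replicate 1 was not. These 3 mice were read apart from replicate 1 after seeing the data.

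As a share of the summed per-kilobase level of the family, Cacna1g made up 11.01 ± 2.28% in WT mice (SD, n = 4) and 6.68 ± 1.87% in hTau.P301S mice, and with NR 9.31 ± 5.22% and 8.34 ± 2.04%. The shares of all 4 groups overlapped, with hTau.P301S replicate 1 at 9.48% and the other mice of that group at 5.60% to 5.83%. The T-type genes together made up 39.6 ± 5.28% in WT and 34.8 ± 1.49% in hTau.P301S.

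**Figure D2:**
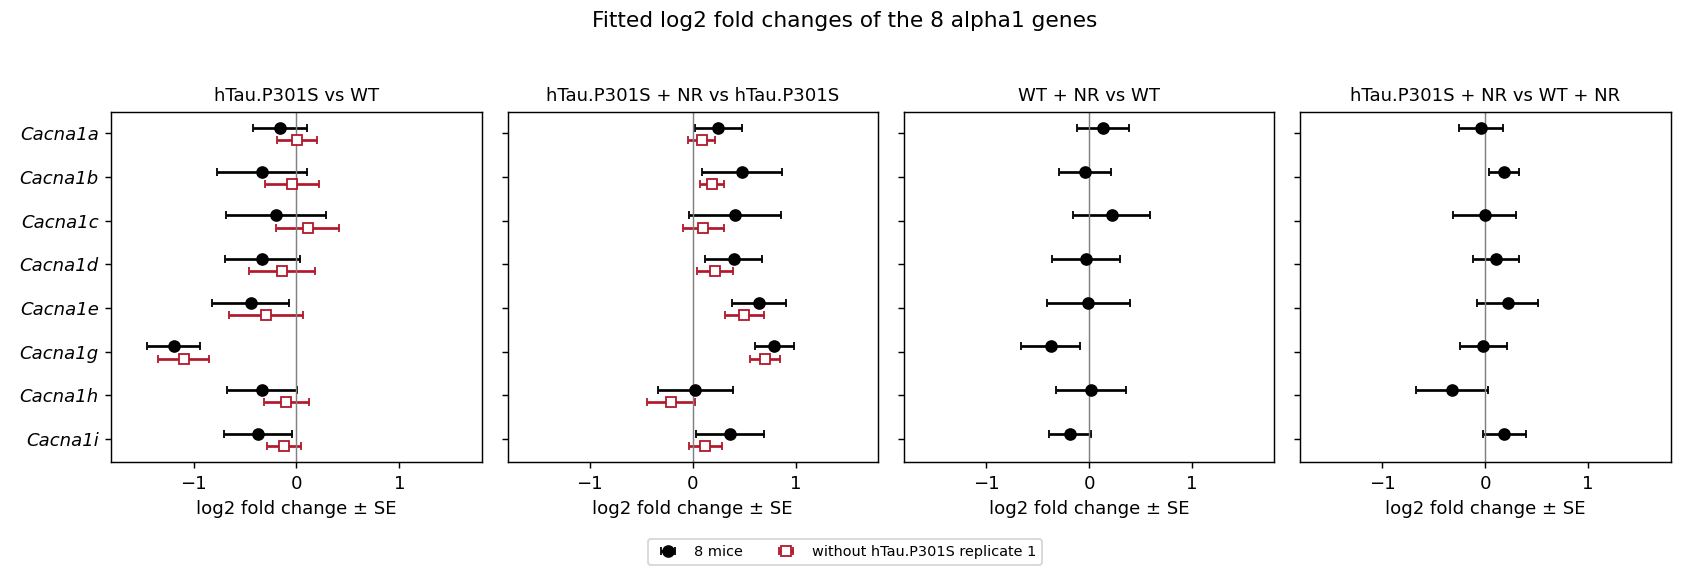
Log2 fold change ± SE of each alpha1 gene in the 4 comparisons of groups (edgeR, 8 mice each), with open squares for the fit without hTau.P301S replicate 1. Cacna1g lies at -1.19 and 0.79 in the first and second comparison, and the other 7 genes lie between -0.44 and -0.16 and between 0.03 and 0.65.

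None of the other 7 members was called between hTau.P301S and WT (edgeR's quasi-likelihood test, adjusted p under 0.05 and absolute log2 fold change above 0.5), where 0.00611% of the 16375 genes tested were. None had an unadjusted p under 0.05, DESeq2 called none, and adjusted p ran from 0.658 to 0.889. Their log2 fold changes were all negative, from -0.44 (Cacna1e) to -0.16 (Cacna1a), with a median of -0.34. The median was 0.02 over all genes tested and -0.22 over the 1924 genes of 9000 bases or longer, a length every member exceeds. Without hTau.P301S replicate 1 the values ran from -0.30 to 0.11, and those of Cacna1a (0.01) and Cacna1c (0.11) turned positive. None of the 7 had groups without overlap. Over all genes the share without overlap was 3.55% for higher and 2.69% for lower values in hTau.P301S, and Cacna1g, chosen by the study on the NR response of the same hTau.P301S mice, is among the latter, from which nothing is read.

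Between hTau.P301S + NR and hTau.P301S, again none of the 7 was called, against 0.0061% of the 16386 genes tested, and DESeq2 called none. Groups did not overlap in 6.33% of all genes for higher and 5.54% for lower values with NR, and in none of the 7. Their log2 fold changes were all positive, from 0.03 (Cacna1h) to 0.65 (Cacna1e), with a median of 0.40, against -0.03 over all genes tested and 0.36 over the 1932 long genes. Without hTau.P301S replicate 1 they ran from -0.21 (Cacna1h) to 0.50 (Cacna1e). With the length trend removed they ran from -0.24 to 0.25.

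Cacna1e, the R-type gene and the longest in deposited length (25228 bases), came nearest to a call. It was at 159, 288, 246 and 276 CPM in hTau.P301S and at 426, 281, 499 and 314 CPM in hTau.P301S + NR. Only replicate 2 of each group overlapped, at 288 and 281 CPM. The log2 fold change was 0.65 (SE 0.26), with an unadjusted p of 0.0362 and an adjusted p of 0.367 by edgeR, and the exact permutation p (two-sided, n = 4 per group) was 0.0571. With the length trend removed it was -0.05 (SE 0.17). In WT mice Cacna1e was at 333, 129, 444 and 414 CPM and in WT + NR mice at 382, 447, 161 and 318 CPM, with the low values in the 2 mice of low hippocampal marker sums. Without WT replicate 2 its log2 fold change between hTau.P301S and WT was -0.73, and it was still not called.

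Cacna1c and Cacna1d, the L-type genes, were at 21.6 and 19.1 CPM in hTau.P301S replicate 1, and at 95.3 to 104 CPM and 32.3 to 45.0 CPM in the other 3 mice of that group. Their WT mice ranged from 49.6 to 149 CPM and from 20.8 to 63.1 CPM, a spread that held all hTau.P301S mice but replicate 1. The P/Q-type gene Cacna1a was at 136 ± 33.9 CPM in WT (SD, n = 4) and 121 ± 31.2 CPM in hTau.P301S mice, and with NR at 149 ± 41.6 and 144 ± 23.3 CPM. The N-type gene Cacna1b was at 111 ± 39.3 and 87.7 ± 40.9 CPM without NR and at 108 ± 20.9 and 122 ± 14.8 CPM with it, with 26.8 CPM in hTau.P301S replicate 1 and 101 to 114 CPM in the other 3.

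No difference with NR was detected in WT mice for the 7 members other than Cacna1g, which was not tested. None of the 7 members was called, as was none of the 16714 genes tested (0.0%, with 132 at an unadjusted p under 0.05 and 3 called by DESeq2), and groups did not overlap in 0.365% of all genes for higher and 0.389% for lower values. The log2 fold changes of the 7 ran from -0.18 (Cacna1i) to 0.22 (Cacna1c), with SEs of 0.20 to 0.40, and none had an unadjusted p under 0.05. Between hTau.P301S + NR and WT + NR, none of the 7 was called, against 0.054% of genes. All overlapped, against 1.62% of genes higher and 2.11% lower without overlap, and the log2 fold changes ran from -0.32 (Cacna1h) to 0.22 (Cacna1e).

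Over all 16 mice with NR as a term, the genotype difference of the 7 members ran from -0.33 (Cacna1h) to -0.08 (Cacna1b) on the log2 scale, and none was called, against 0.12% of the 17555 genes tested. Without hTau.P301S replicate 1 it turned positive for Cacna1b (0.08), Cacna1c (0.05) and Cacna1i (0.05). That of Cacna1g was -0.60 (SE 0.23). The NR effect was not shown to differ between genotypes for any of the 7, with interaction terms from 0.01 (Cacna1h) to 0.66 (Cacna1e, SE 0.51), and no gene of the table was called (0.0%, with 1390 at an unadjusted p under 0.05 and 17 called by DESeq2). Without hTau.P301S replicate 1 the interaction terms of Cacna1a (-0.05), Cacna1c (-0.11) and Cacna1h (-0.23) were negative. The smallest exact permutation p over the 28 comparisons of the 7 members between pairs of groups was the 0.0571 of Cacna1e, where 4 mice against 4 allow 0.0286.

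**Figure D3:**
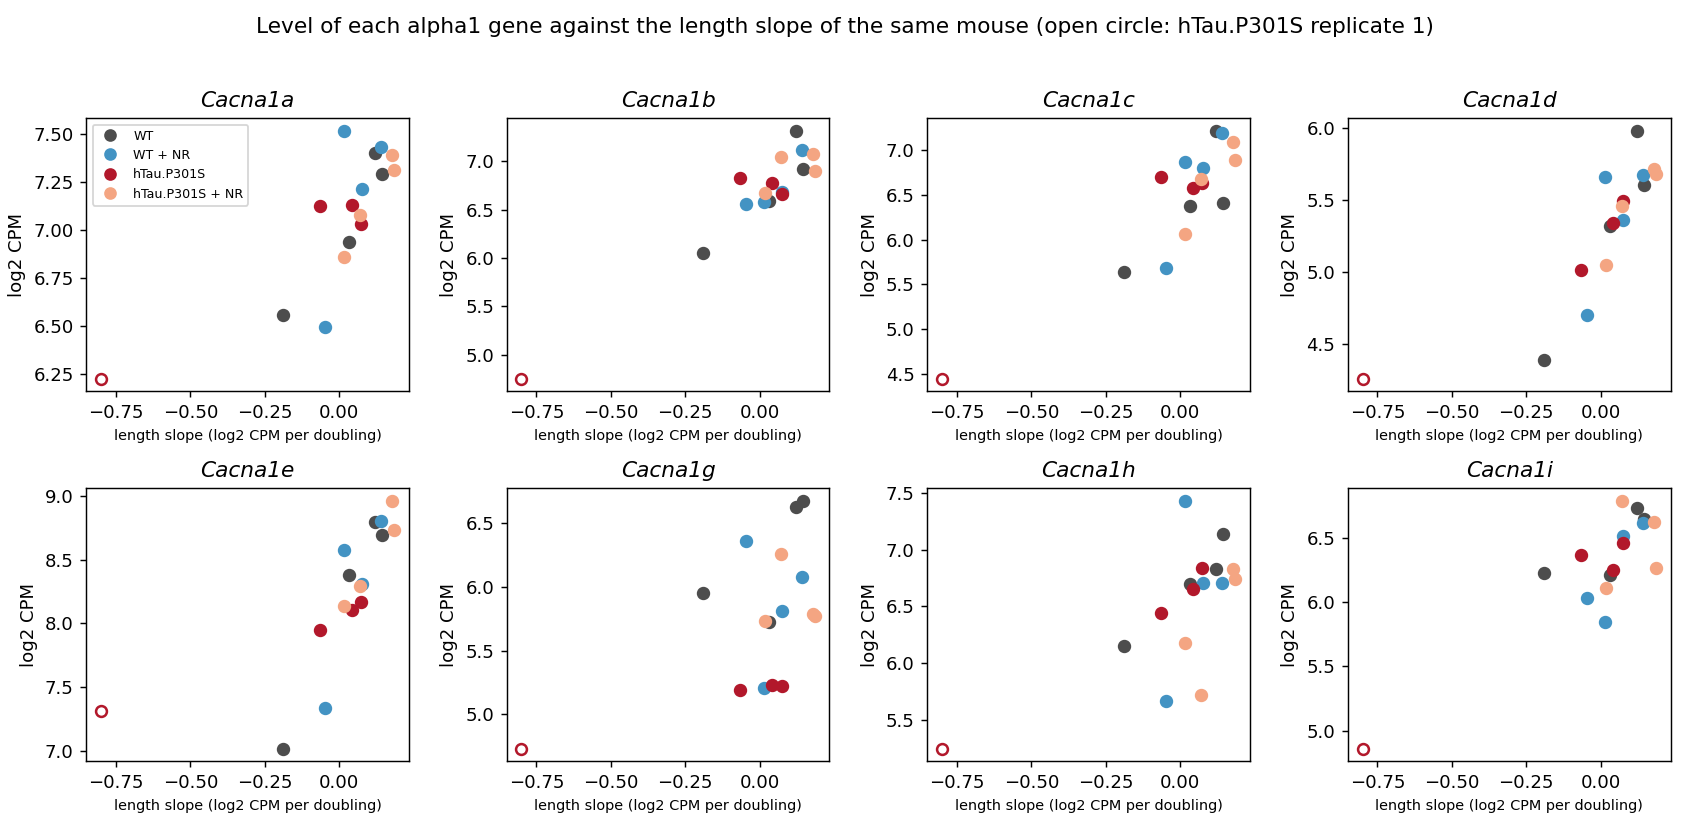
Log2 CPM of each alpha1 gene against the length slope of the same mouse (change in log2 level per doubling of gene length), 16 mice coloured by group. Cacna1d and Cacna1e are higher in mice of higher slope, while the 3 filled hTau.P301S points of Cacna1g lie below all other mice of similar slope except WT + NR replicate 1.

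The members differed in how closely they followed the length slope. As a description over 15 mice, without hTau.P301S replicate 1, Pearson's r with the slope was 0.91 for Cacna1e, 0.89 for Cacna1d, 0.80 for Cacna1b, 0.75 for Cacna1c, 0.74 for Cacna1a, 0.53 for Cacna1i, 0.47 for Cacna1h and 0.24 for Cacna1g. The slope is computed from the same libraries, and the members are long genes that enter it.

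**Figure D4:**
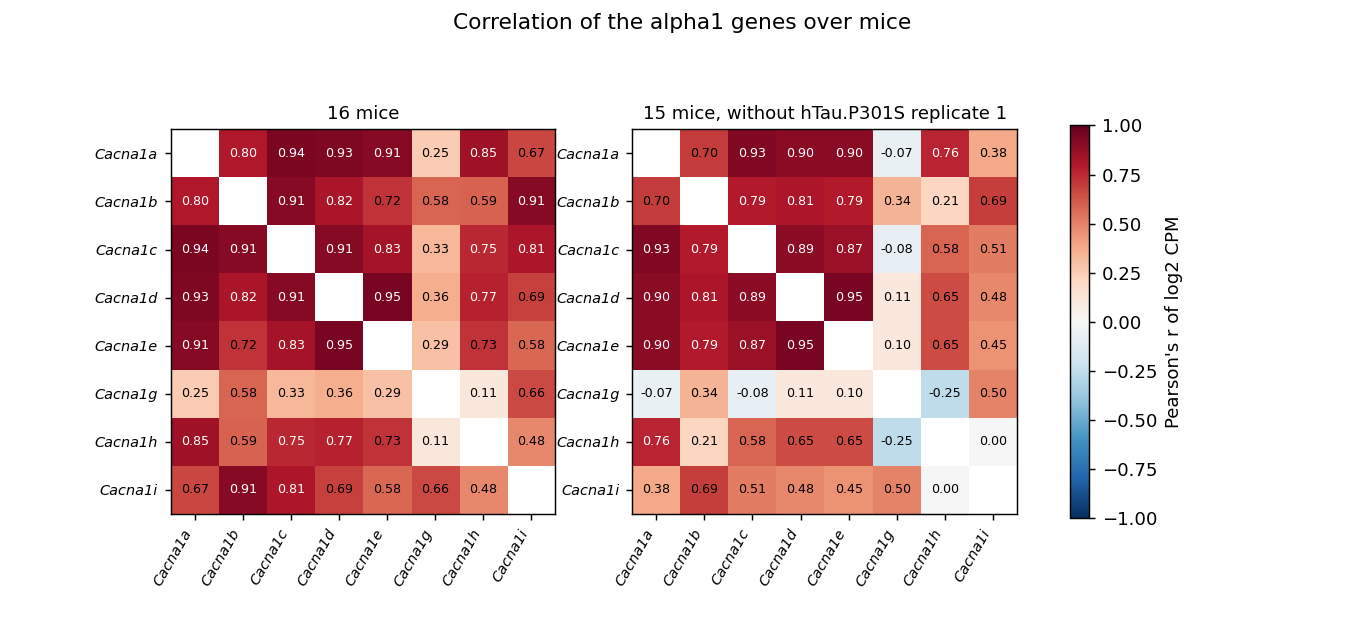
Pearson's r of log2 CPM between the alpha1 genes over 16 mice (left) and over 15 mice without hTau.P301S replicate 1 (right). The row of Cacna1g holds r between -0.25 and 0.50 over 15 mice, while Cacna1a, Cacna1c, Cacna1d and Cacna1e reach 0.87 to 0.95 with each other.

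The members also differed in how far they varied together. For Cacna1g, Pearson's r with the others over 16 mice was between 0.11 (Cacna1h) and 0.66 (Cacna1i), and over 15 mice between -0.25 (Cacna1h) and 0.50 (Cacna1i). Low values were not particular to Cacna1g. Over 15 mice Cacna1h had r of 0.001 with Cacna1i and 0.21 with Cacna1b. Cacna1a, Cacna1c, Cacna1d and Cacna1e had r of 0.83 to 0.95 with each other over 16 mice and 0.87 to 0.95 over 15. These are descriptions over mice of 4 groups that share the marker and length differences given above. The 5 genes whose log2 CPM was most like that of Cacna1g over 16 mice were Slc25a40 (r = 0.92), Alg12 (0.91), Rab10os (0.89), Agbl5 (0.89) and Fnbp1l (0.89). Over 15 mice these had r of 0.86 to 0.89, and the gene most like Cacna1g was Fubp1 (0.90). The study listed Fubp1 with Cacna1g among its NR-responsive genes in these same mice, so nothing is read from this. The genes most like the others over 16 mice were Ankrd27 for Cacna1a (0.95), Ralgps1 for Cacna1b (0.97), Acvr1c for Cacna1c (0.97), D630045J12Rik for Cacna1d (0.96), Ntrk3 for Cacna1e (0.97), Btbd3 for Cacna1h (0.92) and Caln1 for Cacna1i (0.97). For these pairs r was 0.88 (Btbd3) to 0.97 (Ntrk3) over 15 mice.

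The calcium genes around the pore were read from 7 lists with 47 genes. None was called by edgeR in any comparison. Of the 44 tested between hTau.P301S and WT, 4 had an unadjusted p under 0.05, all lower in hTau.P301S, beside 1169 of 16375 genes in either direction, and 2 lay lower without overlap, beside 2.69% of all genes. Of the 44 tested between hTau.P301S + NR and hTau.P301S, 6 were higher and 5 lower with NR at an unadjusted p under 0.05, beside 2110 of 16386 genes, while 6 lay higher and 4 lower without overlap, beside 6.33% and 5.54% of all genes. Their median log2 fold change was 0.13, against -0.03 over all genes. DESeq2 on the same mice called Ryr1 lower in hTau.P301S than in WT, among 116 genes called in all, and Cacna2d2, Cacng4 and Kcnn3 higher with NR in hTau.P301S, among 253. Fitted with all 4 groups, DESeq2 called none of the 47 in the former comparison and Atp2b4 and Kcnn3 in the latter, so Ryr1, Cacna2d2 and Cacng4 were no longer called.

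**Figure D5:**
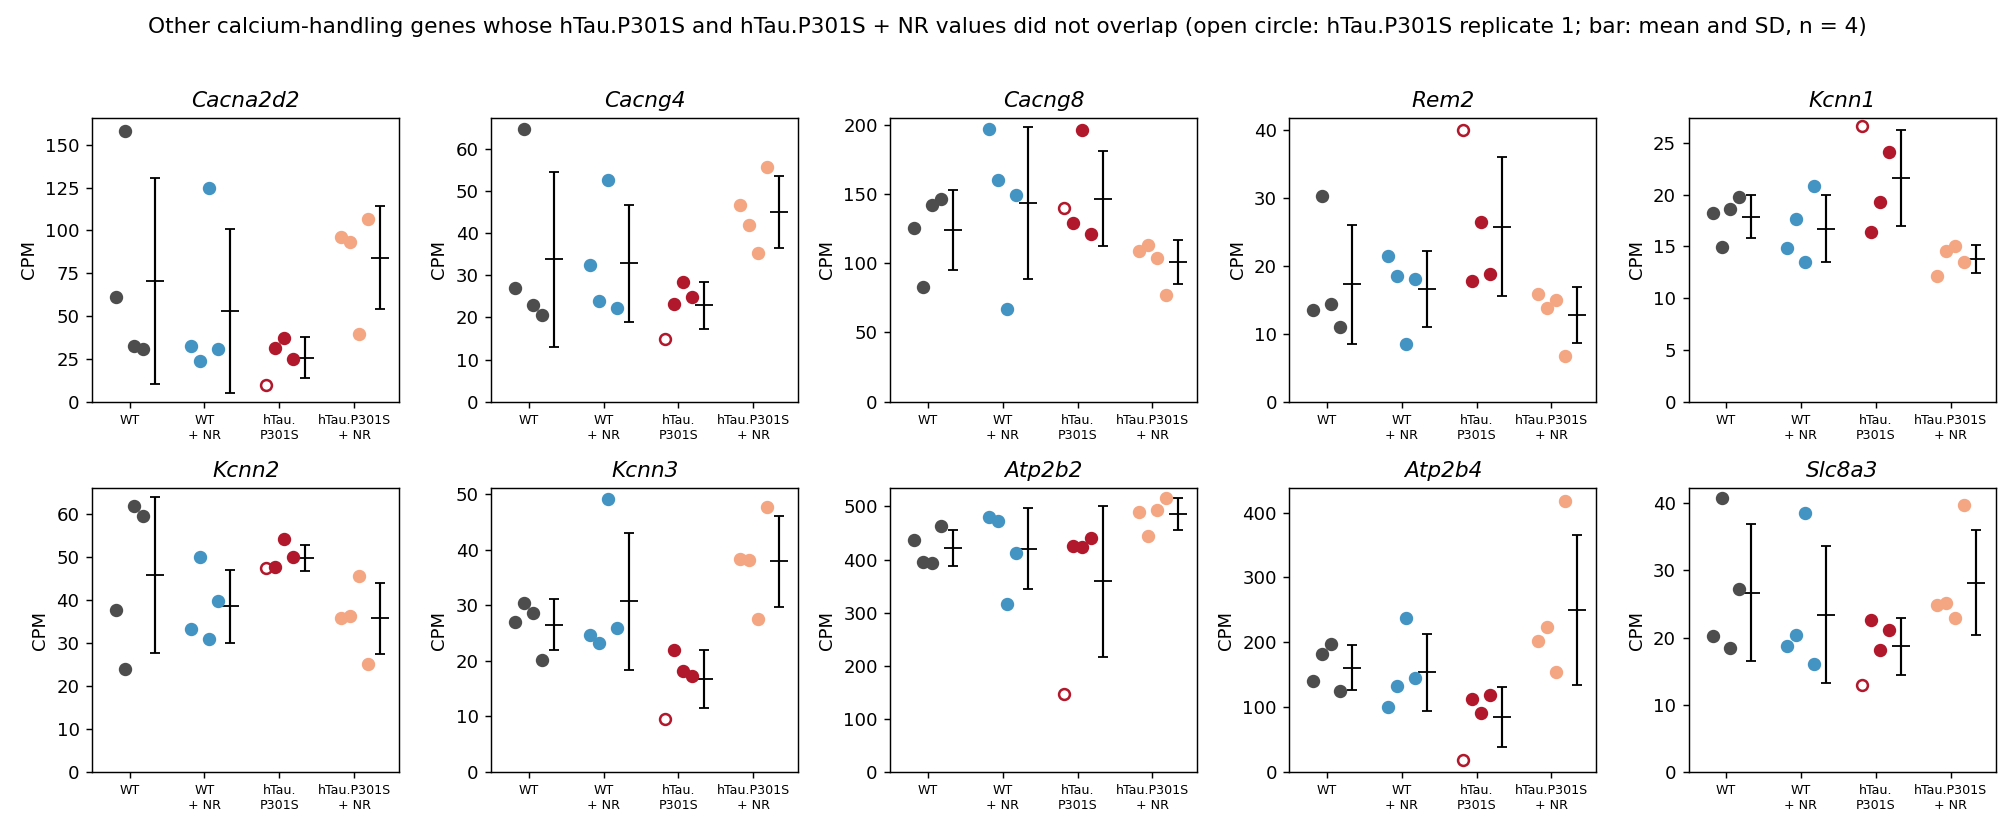
Levels (CPM, axes from 0) of the 10 other calcium genes whose hTau.P301S and hTau.P301S + NR values did not overlap, 1 point per mouse, with the mean and SD of each group (n = 4). Cacna2d2, Cacng4, Kcnn3, Atp2b2, Atp2b4 and Slc8a3 lay higher with NR, and Cacng8, Rem2, Kcnn1 and Kcnn2 lay lower.

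Among the subunits that assemble with the pore, Cacna2d2, an alpha2delta subunit, was at 9.74, 31.1, 37.4 and 24.7 CPM in hTau.P301S and at 96.4, 93.4, 39.7 and 107 CPM in hTau.P301S + NR. Its log2 fold change was 1.70 (SE 0.44, unadjusted p of 0.00377 and adjusted p of 0.367 by edgeR). It was also at 158 CPM in WT replicate 2 and 125 CPM in WT + NR replicate 3, against 23.8 to 61.2 CPM in the other 6 mice without the transgene. The high values in those groups were thus in the mice of low hippocampal marker sums. The alpha2delta gene of highest level per kilobase, Cacna2d1 (15.3 CPM per kb), and its beta counterpart, Cacnb3 (45.9 CPM per kb), overlapped between groups in every pair, and no beta gene had an unadjusted p under 0.05.

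Of the gamma and TARP genes, whose products also regulate AMPA receptors, Cacng4 was higher with NR in hTau.P301S (45.0 ± 8.53 against 22.9 ± 5.68 CPM, SD, n = 4) and Cacng8 lower (101 ± 16.2 against 147 ± 34.2 CPM), with adjusted p of 0.345 and 0.367 by edgeR. Cacng4 was also high in WT replicate 2 (64.7 CPM) and WT + NR replicate 3 (52.7 CPM), the mice of low hippocampal marker sums, against 20.6 to 32.4 CPM in the other 6 mice without the transgene. Cacng8 was lowest of its group in WT replicate 2 (82.9 CPM), WT + NR replicate 3 (66.8 CPM) and hTau.P301S + NR replicate 4 (77.3 CPM). These are the mice of low hippocampal marker sums. Cacng7 had the highest level of the gamma and TARP genes (61.4 CPM per kb). Among channel modulators, Rem2, a small GTPase that inhibits these channels, was at 12.8 ± 4.14 CPM in hTau.P301S + NR against 25.7 ± 10.3 CPM in hTau.P301S. Its log2 fold change was -1.02 (SE 0.36, adjusted p of 0.367 by edgeR). Without hTau.P301S replicate 1, which was at 40.0 CPM, it was -0.71. In WT mice Rem2 was at 16.6 CPM with NR and 17.2 CPM without. Calm2, a calmodulin gene, had the highest level of the modulators (854 CPM per kb).

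The calcium-activated potassium channels, which calcium entry opens, split. Kcnn3 was at 9.49, 21.9, 18.1 and 17.3 CPM in hTau.P301S and at 38.2, 38.2, 27.6 and 47.7 CPM in hTau.P301S + NR. Its log2 fold change was 1.18 (SE 0.27, adjusted p of 0.342 by edgeR), and smaller but still positive without hTau.P301S replicate 1. Kcnn3 was highest of its group in each mouse of low hippocampal marker sum. In WT replicate 2 it was at 30.5 CPM, against 20.1 to 28.5 CPM in the rest of WT. In WT + NR replicate 3 it was at 49.1 CPM, against 23.2 to 25.9 CPM in the rest of that group. The 47.7 CPM was in hTau.P301S + NR replicate 4. Kcnn1 and Kcnn2 lay lower with NR, with log2 fold changes of -0.66 (SE 0.20) and -0.49 (SE 0.19). Kcnma1, which had the highest level of these (12.2 CPM per kb), overlapped.

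Among genes for calcium release and removal, Atp2b4, a plasma membrane calcium pump, was at 17.7, 112, 90.1 and 118 CPM in hTau.P301S. It was at 139, 182, 198 and 125 CPM in WT and at 202, 224, 154 and 418 CPM in hTau.P301S + NR, so its hTau.P301S mice lay below both groups, as those of Cacna1g did. Its log2 fold changes were -0.93 (SE 0.49) and 1.56 (SE 0.55), with adjusted p of 0.598 and 0.367 by edgeR, and the first was -0.60 without hTau.P301S replicate 1. Atp2b4 was also high in WT + NR replicate 3 (238 CPM, against 99.6 to 145 CPM in the rest of that group). The 418 CPM was in hTau.P301S + NR replicate 4. Both mice had low hippocampal marker sums, as did WT replicate 2, which at 182 CPM was not the highest in WT. Ryr1, a ryanodine receptor of the calcium stores, was at 6.50, 7.36, 6.10 and 8.87 CPM in hTau.P301S and 12.1, 12.6, 19.7 and 25.9 CPM in WT. Its log2 fold change was -1.28 (SE 0.30, adjusted p of 0.529 by edgeR), and it was at 4.85 to 11.5 CPM in hTau.P301S + NR. In WT + NR mice Ryr1 was at 19.6, 17.2, 4.94 and 8.01 CPM, which overlapped both hTau.P301S groups. Atp2b2, another pump, and Slc8a3, a sodium-calcium exchanger, lay higher with NR in hTau.P301S, by 0.44 (SE 0.32) and 0.59 (SE 0.24) on the log2 scale. Without hTau.P301S replicate 1, where Atp2b2 was at 146 CPM against 424 to 440 CPM in the other 3 mice, the value of Atp2b2 was 0.19. Slc8a3 was also high in WT replicate 2 (40.8 CPM) and WT + NR replicate 3 (38.6 CPM), against 16.03 to 27.3 CPM in the other 6 mice without the transgene. In hTau.P301S + NR it was at 39.8 CPM in replicate 4, also of low hippocampal marker sum, and at 23.0 to 25.2 CPM in the rest. The highest hTau.P301S mouse was at 22.6 CPM. Atp2a2, a pump of the endoplasmic reticulum, had the highest level of this list (143 CPM per kb) and overlapped.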

How the data were processed

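Hippocampal poly(A) RNA-seq of 16 mice was used. Per the study's methods and the labels, the authors trimmed reads (FastQC, Trim Galore), aligned them to mm10 with STAR, counted genes with RSEM and deposited raw counts, whole numbers without normalization, with a further value, a gene length of unstated definition. The table has 0 columns of other samples. Groups and replicate numbers come from the sample titles, which do not say whether same-numbered mice are related.

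Each pair was fitted over its 8 mice, and genotype and interaction over 16, with edgeR 4.0.16 in R 4.3.3 (default filter on low counts, TMM, quasi-likelihood, Benjamini-Hochberg over all genes tested). A gene was called at an absolute log2 fold change above 0.5 with adjusted p under 0.05. The SE was the log2 fold change over the root of its F statistic. Log2 CPM used a prior count of 2. Exact permutation tests of mean log2 CPM used scipy 1.17.1. Alternatives were DESeq2 1.42.0, other size factors, filters and fits, a length trend removed by lowess, a replicate block and each mouse left out. Scripts were tested on simulated data.

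The members and lists were chosen with earlier results of these data known. Genes named were the members, other calcium genes without overlap or best expressed in their list, and the genes most like each member. Positions and sequences are from GENCODE M21 on GRCm38, which mm10 denotes.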

Additional observations from a re-analysis of the deposited data

Results flagged for a closer look

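In hTau.P301S mice, the lowest mouse lay far from the other 3 for 4 members, and for each it was replicate 1. The gap to the next mouse, as a fraction of the group's range in CPM, was 0.909 for Cacna1g, 0.892 for Cacna1c, 0.862 for Cacna1a and 0.856 for Cacna1b, above Dixon's limit for 4 values. That mouse had 14.4% of counts in mitochondrial genes and a length slope of -0.80. In hTau.P301S + NR, the highest mouse for Cacna1g, replicate 4 at 76.6 CPM, was flagged in the same way with a fraction of 0.920, and it had the lowest hippocampal marker sum of all mice, 402 CPM. Chance flags about 1 in 20 groups.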

How the results depend on the processing

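No alternative called any of the 7 members other than Cacna1g in any of the 6 comparisons. With each mouse left out, the log2 fold change of Cacna1g ran from -1.37 to -1.06 between hTau.P301S and WT, and from 0.65 to 0.86 between hTau.P301S + NR and hTau.P301S. Under the other alternatives these ran from -1.32 to -0.95 and from 0.46 to 0.82, and the interaction ran from 0.84 to 1.37 over all of them.

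Calls over all genes moved more. Between hTau.P301S and WT there was 1, against 116 and 492 by DESeq2 on 8 and 16 mice, 36 with all groups in edgeR, 9 with the length trend removed, 5 without a filter and 14 without hTau.P301S replicate 1. Between hTau.P301S + NR and hTau.P301S there was 1, against 253 and 245 by DESeq2, 2 with all groups in edgeR, 0 with at least 10 counts in every mouse and 33 without replicate 1. DESeq2 called 3 between WT + NR and WT, 58 and 25 against 9 between the NR groups (15 without a filter), 108 against 21 for genotype (41 with the length trend removed, 11 with at least 10 counts) and 17 against 0 for the interaction. After the 3 mice of low hippocampal markers were left out, a choice made after seeing the data, edgeR called 1, 0, 0, 28, 14 and 0 genes in the same order, and with hTau.P301S replicate 1 also left out 23, 2, 91 and 0 in the comparisons that include it. The causes were not tested.

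Whether the replicate numbers pair the mice is not known. Same-numbered mice had deviations from their group means correlated from -0.54 to 0.29, which cannot exclude a pairing. A replicate block gave 3 and 0 calls in the comparisons of hTau.P301S with WT and with hTau.P301S + NR, 4 between the NR groups, 22 for genotype and 0 for WT + NR against WT and the interaction, and 0 of the 7 members in each. Cacna1g was at -1.15 and 0.79 under the block in the first 2. The 4 mice per group limit all of these tests.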
